A study of Homo sapiens with 6 samples.

Results

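The rows described here are TRMT112, the activating partner of a family of RNA and protein methyltransferases, ESRRA, which lies over its exons on the other strand, the enzymes THUMPD3, TRMT11, METTL5, BUD23, N6AMT1 and ALKBH8, the THUMP-domain protein THUMPD1, and THUMPD3-AS1, a transcript antisense to THUMPD3. They were chosen by name, 10 of the 59087 rows of the count table. The RNA came from HEK293T, a human embryonic kidney cell line. Total RNA was sequenced in 6 libraries: 2 of the THUMPD2 knockout line KO1, 2 of the THUMPD2 knockout line KO2 and 2 of wild type (WT). No treatment is labelled, all 3 groups share the HEK293T background, and each knockout group is 1 line set against 1 WT line, so the loss of THUMPD2 cannot be told apart from other differences between lines. The stated purpose was to find expression and splicing changes on loss of THUMPD2, with the second line as a repeat.

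TRMT112 is a small zinc-binding protein with no catalytic activity of its own. It binds and stabilises a set of methyltransferases, among them THUMPD2, which acts on the U6 spliceosomal RNA, THUMPD3 and TRMT11, which methylate guanosines of tRNA, METTL5 and BUD23, which modify the RNA of the small ribosomal subunit, N6AMT1, which methylates the termination factor eRF1, and ALKBH8, which completes the wobble uridine of some tRNAs. These partners share a single pool of TRMT112 in the cell. THUMPD1 carries a THUMP domain, an RNA-binding fold, but is no methyltransferase: it brings the acetyltransferase NAT10 to tRNA.

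Positions below are those of GENCODE v29 on GRCh38. TRMT112 (ENSG00000173113.6) runs from 64316460 to 64318084 on the minus strand of chromosome 11. ESRRA (ENSG00000173153.13), which encodes the nuclear receptor ERR alpha, a regulator of mitochondrial genes, runs toward it on the plus strand from 64305572 to 64316743. Their exons share 284 bases at the end of both genes, from 64316460 to 64316743, none of them coding, which is 17.5% of the TRMT112 exons and 9.37% of those of ESRRA. THUMPD3 (ENSG00000134077.15, chromosome 3, 9362842 to 9386791, plus strand) shares 660 non-coding bases near its 3′ end with THUMPD3-AS1 (ENSG00000206573.8, 9349689 to 9398579, minus strand). At its start THUMPD3 shares 462 non-coding bases with another antisense transcript, AC026191.1, and 212 with SRGAP3.

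METTL5 (ENSG00000138382.14, chromosome 2, 169810081 to 169824931, minus strand) shares 572 exonic bases with SSB, the gene of the RNA-binding La protein, and 39 of these are coding in METTL5. BUD23 (ENSG00000071462.11, chromosome 7, 73683025 to 73705161, plus strand) shares 359 bases at its start with the coding part of DNAJC30, a mitochondrial chaperone gene that runs the other way. At its other end it shares 662 bases with STX1A, which encodes a syntaxin of vesicle fusion. THUMPD1 (ENSG00000066654.13, chromosome 16, 20702816 to 20742084, minus strand) shares 135 bases with the pseudogene AC004381.2. TRMT11 (ENSG00000066651.19, chromosome 6, 125986430 to 126203817, plus strand), N6AMT1 (ENSG00000156239.11, chromosome 21, 28872191 to 28885371, minus strand) and ALKBH8 (ENSG00000137760.14, chromosome 11, 107502726 to 107565746, minus strand) had no exons of another gene over at least 100 of their exonic bases.

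**Figure D1:**
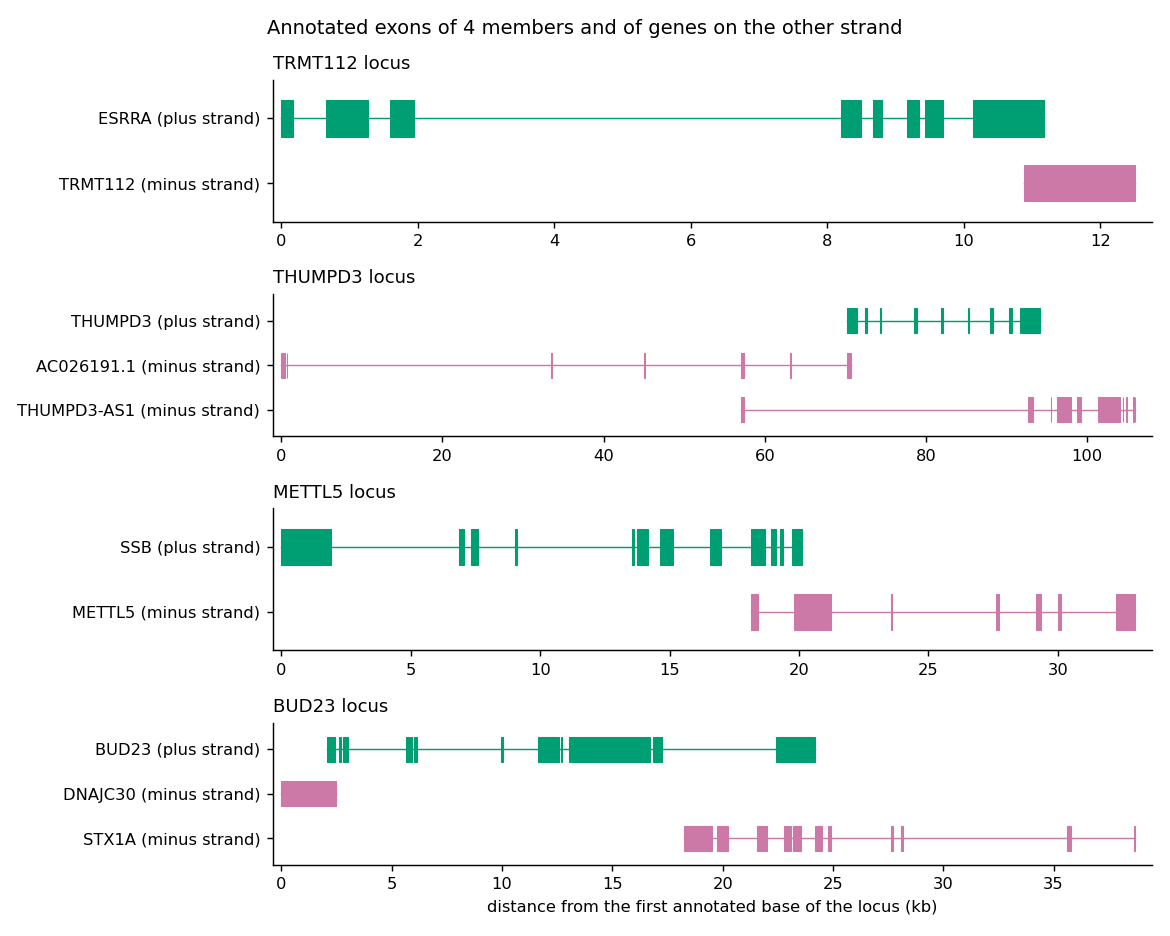
Annotated exons of TRMT112, THUMPD3, METTL5 and BUD23 and of the genes over them on the other strand, drawn to scale, with distance from the first base of each locus in kb on the x axis. Boxes are exons, thin lines introns, and colour marks the strand; TRMT112 and ESRRA meet at their ends, while BUD23 and DNAJC30 meet at their starts.

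These overlaps matter for what a row counts. The library kit keeps strand, and the strand setting of the counting is not given in the sources used here. The median of the mean count was 33 over the 5413 protein-coding rows with exons of another gene opposite to 100 or more of their exonic bases, and 2.83 over the 13071 with none. Among markers of HEK293 cells, VIM had a mean count of 445 and VIM-AS1 over it 32600. NEFM had 80.8 and AF106564.1 over it 2450, and LHX1 had 0 and AC243773.1 over it 6.33. NEFL went the other way, with 30.8 against 20.7 for AC107373.2, and KRT8 and KRT18, over each other, had 3650 and 137. Whether the reads on such a row come from the named gene or from its partner was not tested. Every symbol below therefore names a row of the table, not the gene's own transcript.

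The promoters of the 4 members whose row passed the test in at least 1 line are given here, each for the gene that names the row. Whether these promoters control the transcripts counted on those rows was not tested. They come from RefSeq on GRCh38.p14, which held 10 entries for 9 of the 10 members. Each is printed from 5′ to 3′ on the gene's own strand, with motif matches in capitals. TRMT112 has 2 entries, chr11:64317941-64318240 over the annotated start and chr11:64317510-64317809 inside the gene (both minus strand), and both are given. The THUMPD3 entry is chr3:9362804-9363103 (plus strand), that of METTL5 chr2:169824856-169825155 (minus strand) and that of BUD23 chr7:73683347-73683646 (plus strand).
TRMT112 at the annotated start: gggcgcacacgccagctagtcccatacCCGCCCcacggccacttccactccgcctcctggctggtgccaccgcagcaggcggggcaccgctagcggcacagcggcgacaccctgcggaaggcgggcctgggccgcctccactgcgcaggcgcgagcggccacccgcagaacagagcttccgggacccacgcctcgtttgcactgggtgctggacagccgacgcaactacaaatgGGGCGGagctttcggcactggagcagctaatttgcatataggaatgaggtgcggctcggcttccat
TRMT112 inside the gene: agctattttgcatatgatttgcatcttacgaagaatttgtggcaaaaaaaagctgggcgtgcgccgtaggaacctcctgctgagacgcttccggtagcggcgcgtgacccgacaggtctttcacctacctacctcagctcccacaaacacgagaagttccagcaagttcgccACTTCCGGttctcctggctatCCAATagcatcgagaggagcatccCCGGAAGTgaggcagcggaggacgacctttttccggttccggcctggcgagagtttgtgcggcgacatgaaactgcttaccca
THUMPD3: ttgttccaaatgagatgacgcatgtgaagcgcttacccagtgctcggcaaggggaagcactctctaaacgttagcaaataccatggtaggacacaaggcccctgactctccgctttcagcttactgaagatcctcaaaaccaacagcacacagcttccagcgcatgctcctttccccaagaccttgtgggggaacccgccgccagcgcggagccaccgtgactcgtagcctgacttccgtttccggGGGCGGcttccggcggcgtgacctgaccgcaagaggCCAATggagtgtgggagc
METTL5: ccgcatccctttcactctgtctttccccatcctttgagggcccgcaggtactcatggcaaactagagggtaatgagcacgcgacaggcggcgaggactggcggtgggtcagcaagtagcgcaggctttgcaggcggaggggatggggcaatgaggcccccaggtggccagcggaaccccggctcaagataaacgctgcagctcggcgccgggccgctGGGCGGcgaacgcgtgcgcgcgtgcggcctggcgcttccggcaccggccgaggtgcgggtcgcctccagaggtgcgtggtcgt
BUD23: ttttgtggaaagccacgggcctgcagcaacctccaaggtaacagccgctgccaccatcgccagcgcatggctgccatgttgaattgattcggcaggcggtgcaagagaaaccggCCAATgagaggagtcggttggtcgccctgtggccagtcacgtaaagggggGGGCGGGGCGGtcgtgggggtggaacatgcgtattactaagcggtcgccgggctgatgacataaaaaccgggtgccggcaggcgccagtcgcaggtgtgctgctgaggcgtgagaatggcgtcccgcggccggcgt
The motifs searched, on both strands and with overlapping matches counted, were the ERR element TCAAGGTCA, the NRF1 element GCGCATGCG, the ETS element CCGGAAGT, the YY1 element AAGATGGCG, the GC box GGGCGG, the TATA box TATAAA and the CCAAT box. The TRMT112 window at the annotated start held 2 GC boxes and no ETS element or CCAAT box. The window inside the gene held 2 ETS elements, a motif present in 4.14% of the 35116 promoters of the same length, and 1 CCAAT box, present in 34.6%. THUMPD3 held 1 GC box and 1 CCAAT box, METTL5 held 1 GC box, and BUD23 held 2 overlapping GC boxes and 1 CCAAT box. GC boxes were found in 45.0% of all promoters, and the ESRRA promoter held 8 of them. None of the 10 entries held the ERR element (0.353% of all promoters), the NRF1 element (1.92%), the YY1 element (1.75%) or the TATA box (11.5%). The THUMPD3 window lies over the first exon of AC026191.1, and the BUD23 window spans the annotated start of DNAJC30.

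Library totals ran from 7414339 to 8391143 counts, while the design text gives over 240 M reads, without saying whether per library or per line. Chi-square over its degrees of freedom, which is near 1 for repeat counts of 1 library, was 3.92 between the KO1 libraries, 2.28 between those of KO2 and 2.41 between those of WT, and the KO1 libraries went apart on DNAJC30. The THUMPD2 row held 3 and 0 reads in KO1, 0 and 1 in KO2, and 1 and 2 in WT, too few to check the genotype labels. Of 10 markers of HEK293 cells only LHX1 had no reads in every library, and their summed level was 401 to 454 CPM (reads on a row scaled to the size of the library) in KO1, 709 to 710 in KO2 and 524 to 529 in WT. Of 10 markers of blood, endothelium, fibroblasts, liver and islets, ALB and INS had no reads, and the summed level was 18.7 to 18.8 CPM in KO1, 28.3 to 35 in KO2 and 33.9 to 40.1 in WT. The part of these marker shifts in the results below was not tested. Fewer reads from every cell and fewer cells with the transcript cannot be told apart in bulk RNA. No label says that same-group libraries are separate cultures, so the p-values rest on a spread that may be technical.

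The 10 rows covered a wide range of levels. Per kilobase of exon, METTL5 stood first in WT at 531 ± 27.8 CPM per kb (mean ± SD, n = 2 libraries, as for all such values here). It was followed by TRMT112 at 79.1 ± 4.58, ESRRA at 58.3 ± 2.7, THUMPD3-AS1 at 38.6 ± 0.156, BUD23 at 27 ± 0.766 and THUMPD3 at 4.61 ± 0.482 CPM per kb. The remaining rows were low, with TRMT11 at 0.409 ± 0.148, THUMPD1 at 0.0815 ± 0.0607, ALKBH8 at 0.0428 ± 0.0182 and N6AMT1 at 0.0129 ± 0.0182 CPM per kb. Of these neighbours in order, THUMPD1 and ALKBH8, and ALKBH8 and N6AMT1, did not differ beyond their spread. The rows of TRMT11, ALKBH8 and N6AMT1, the 3 members with no gene over their exons, were all among the lowest 4. TRMT112 and ESRRA changed places between groups: their levels were 52.2 ± 0.976 and 57.9 ± 0.397 CPM per kb in KO2, while in KO1 they were 70.6 ± 7.07 and 55.6 ± 8.57, within the spread.

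**Figure D2:**
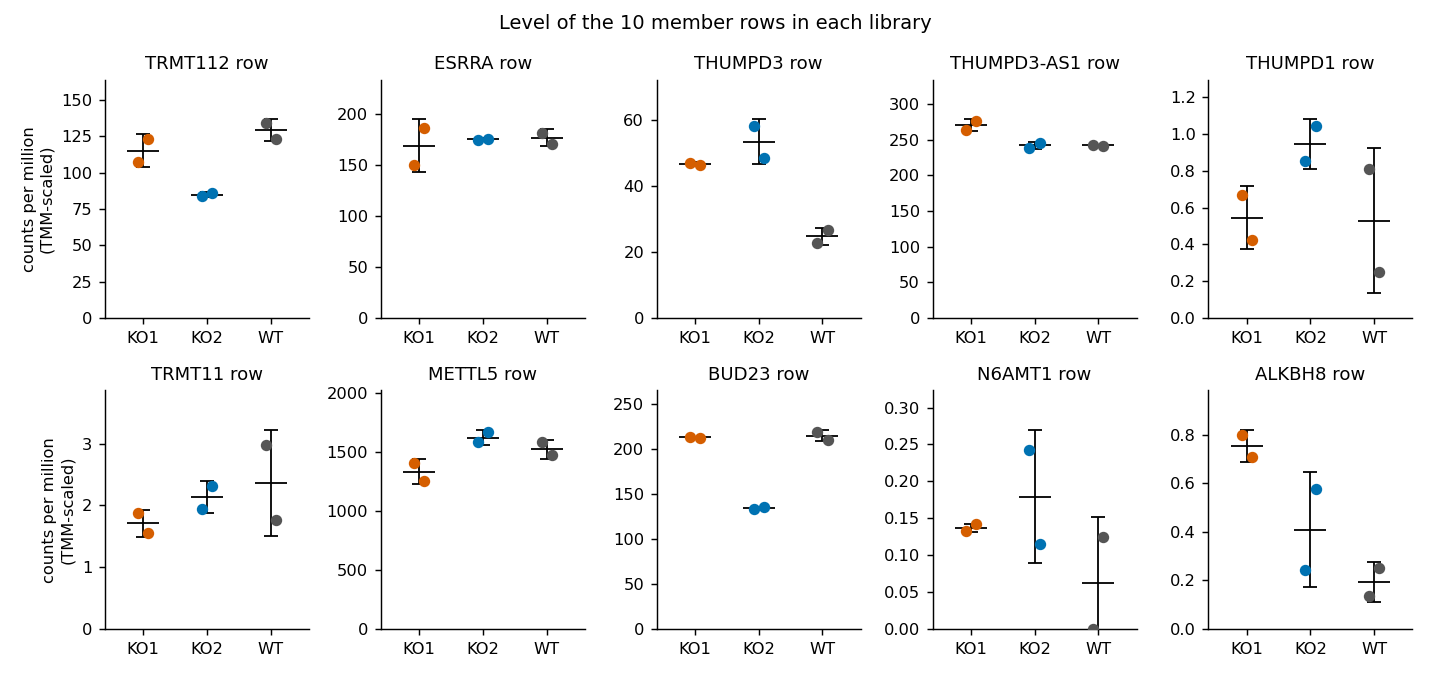
Level of each of the 10 member rows in every library, in CPM after TMM scaling on the y axis of each panel (starting at 0), for KO1, KO2 and WT. Points are libraries, long bars are means and error bars are SD (n = 2); TRMT112 and BUD23 are lowest in KO2, THUMPD3 is higher in all 4 knockout libraries than in WT, and THUMPD1, TRMT11, N6AMT1 and ALKBH8 are near 0.

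The edgeR quasi-likelihood test was run on all 14184 rows with enough reads, and a row was called where its p, adjusted by Benjamini-Hochberg, was under 0.05. Of the 10 members 7 could be tested; THUMPD1, N6AMT1 and ALKBH8 had too few reads. In KO1 against WT 2 members were called, THUMPD3 higher and METTL5 lower, where 23.6% of all tested rows were called, 10.4% higher and 13.3% lower. In KO2 against WT 3 were called, THUMPD3 higher and TRMT112 and BUD23 lower, against a background of 29%, 13.6% higher and 15.4% lower. The mean of both lines called the same 3 rows as KO2, with a background of 28.3%, 12.3% higher and 15.9% lower. KO1 against KO2 called 3, TRMT112 and BUD23 higher and METTL5 lower, with a background of 20.4%, 10.1% higher and 10.3% lower. Only THUMPD3 was called with the same sign in both lines, as were 13.5% of all tested rows, 5.79% higher and 7.72% lower. The median log2 fold change of the 7 members was -0.07 in KO1 and -0.01 in KO2, beside 0.01 and 0.02 over all tested rows. Over all rows in KO1, 1469 were higher and 1881 lower, but 1941 and 1549 with upper-quartile scaling. Both lines share the WT libraries.

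**Figure D3:**
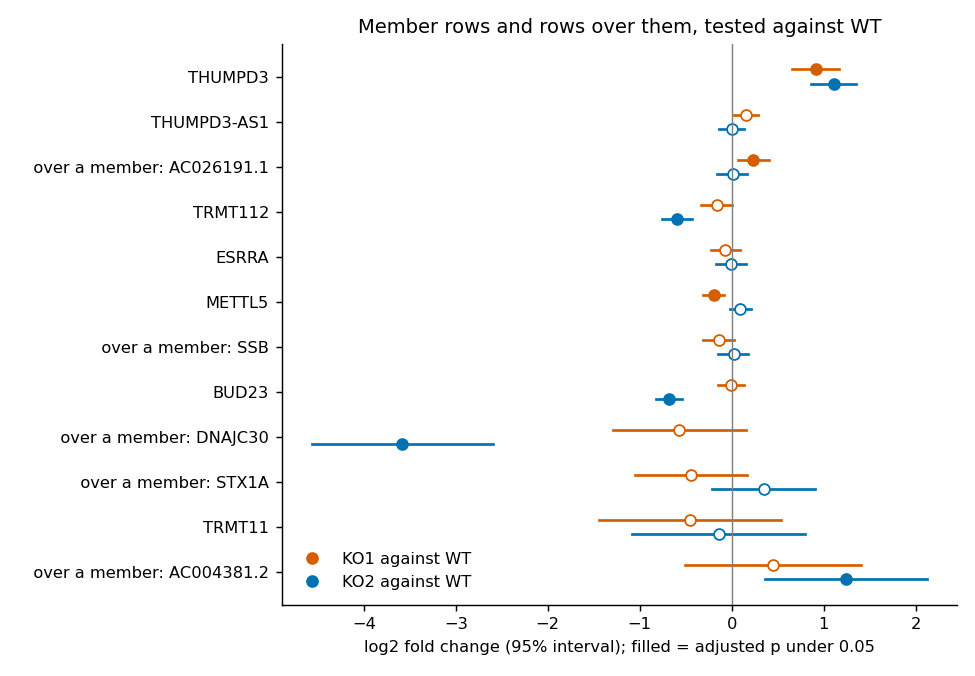
Log2 fold change against WT on the x axis for the tested members and the rows over their exons, KO1 in orange above KO2 in blue. Points are estimates of the edgeR fit, bars their 95% intervals (n = 2 libraries a group) and filled points have an adjusted p under 0.05; THUMPD3 lies near 1 in both lines, and the TRMT112, BUD23 and DNAJC30 rows are called lower in KO2.

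The TRMT112 row, named for the shared partner, was lower in KO2 and stood between KO2 and WT in KO1. It held 799 and 868 reads in KO1, 689 and 745 in KO2, and 992 and 983 in WT. Whether these reads come from TRMT112 or from ESRRA was not tested. Both KO2 libraries lay below all others, whereas on the scaled level 1 KO1 library met the lower WT library. The level was 115 ± 11.5 CPM in KO1, 84.9 ± 1.59 in KO2 and 129 ± 7.45 in WT. TRMT112 fell in KO2 by 0.60 ± 0.08 (log2 fold change ± SE), 1.51-fold lower, with an edgeR adjusted p of 2.95e-07, and the 95% interval ran from -0.76 to -0.43. Among all tested rows, 34.3% changed by more than this in KO2. In KO1 the log2 fold change was -0.16 ± 0.08 with an adjusted p of 0.148. The lines differed from each other, with a log2 fold change of 0.43 ± 0.08 in KO1 against KO2 and an edgeR adjusted p of 0.000116.

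The ESRRA row, named for the nuclear receptor gene over the TRMT112 3′ end, did not follow. It held 1126 and 1321 reads in KO1, 1437 and 1528 in KO2, and 1353 and 1363 in WT. The KO1 libraries differed from each other more than the groups did. Its log2 fold change was -0.07 ± 0.08 in KO1 and -0.01 ± 0.08 in KO2, with edgeR adjusted p-values of 0.6 and 0.951, and the KO2 interval of -0.17 to 0.15 did not reach the TRMT112 value. The TRMT112 row therefore took a smaller share of the reads of this pair in KO2. Its share was 41.5% and 39.7% in KO1, 32.4% and 32.8% in KO2, and 42.3% and 41.9% in WT. The 95% Wilson intervals of the KO2 libraries, 30.5% to 34.4% and 30.9% to 34.7%, lay below those of every other library. These intervals cover counting error only. With 2 libraries in a group, an exact permutation test of these shares could not pass the threshold and none was made. The SD between libraries was 1.31 percentage points in KO1, 0.26 in KO2 and 0.284 in WT.

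**Figure D4:**
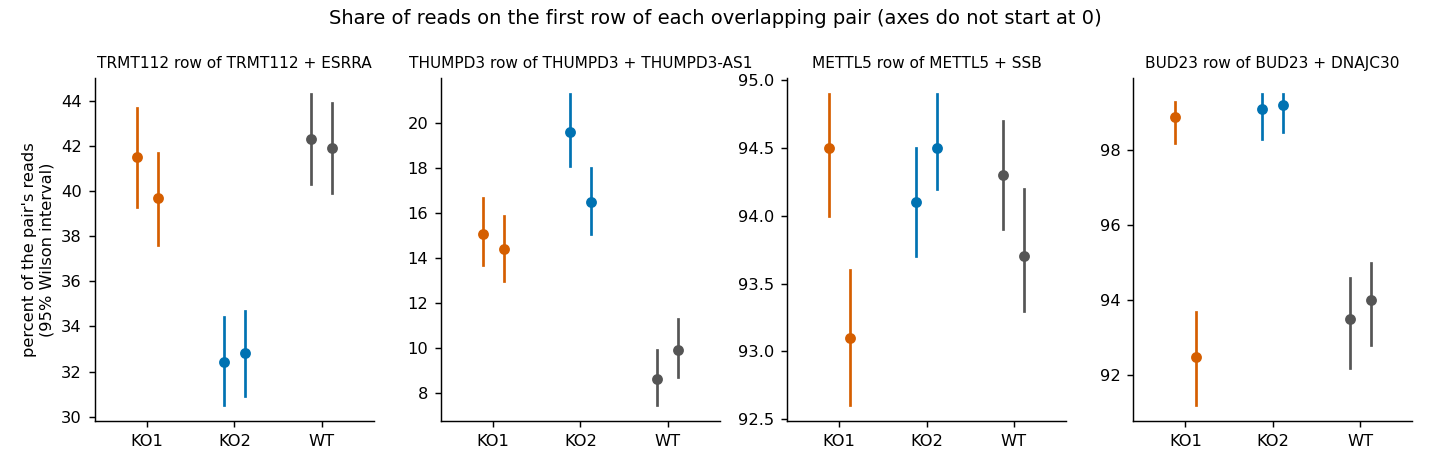
Share of reads on the first row of 4 overlapping pairs, in percent of the pair's reads on the y axis (not starting at 0), for KO1, KO2 and WT. Points are libraries and bars 95% Wilson intervals; the TRMT112 share is lowest in KO2, the THUMPD3 share is higher in all knockout libraries than in WT, and the BUD23 share differs between the KO1 libraries.

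The THUMPD3 row, named for the tRNA guanosine methyltransferase that shares a domain layout with THUMPD2, was the member that rose in both lines. It held 353 and 328 reads in KO1, 479 and 421 in KO2, and 170 and 212 in WT. Whether these reads come from THUMPD3 or from the antisense transcripts over it was not tested. All 4 knockout libraries lay above both WT libraries. The level was 46.8 ± 0.48 CPM in KO1, 53.4 ± 6.81 in KO2 and 24.8 ± 2.58 in WT. THUMPD3 was 1.89-fold higher in KO1, a log2 fold change of 0.92 ± 0.12 with an edgeR adjusted p of 3.2e-07. In KO2 it was 2.15-fold higher, at 1.11 ± 0.12 with an adjusted p of 2.96e-09. The lines did not differ from each other past the threshold, with a log2 fold change of -0.19 ± 0.11 in KO1 against KO2, a 95% interval of -0.42 to 0.04 and an adjusted p of 0.266. THUMPD3 was called in each line in all 16 fits made, with log2 fold changes of 0.81 to 1.02 in KO1 and 0.98 to 1.24 in KO2.

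THUMPD3-AS1, over the 3′ end of THUMPD3, changed little by comparison. It held 1978 and 1947 reads in KO1, 1961 and 2126 in KO2, and 1800 and 1925 in WT, and on the scaled level only the KO1 libraries stood above the rest. Its log2 fold change was 0.16 ± 0.07 in KO1, adjusted p 0.0857 by edgeR, and 0.00 ± 0.07 in KO2, adjusted p 0.994. The KO1 value passed the threshold in 4 of 16 fits, among them upper-quartile scaling (0.23). The THUMPD3 row took 15.1% and 14.4% of the reads of this pair in KO1, 19.6% and 16.5% in KO2, and 8.63% and 9.92% in WT. The Wilson intervals of the WT libraries, 7.47% to 9.95% and 8.72% to 11.3%, did not meet those of any knockout library. AC026191.1, over the THUMPD3 start, held 840 and 886 reads in KO1, 802 and 915 in KO2, and 768 and 785 in WT. It was called in KO1 alone, at 0.23 ± 0.08 with an edgeR adjusted p of 0.0323, and this call was lost when either WT library or the second KO1 library was left out (0.27, 0.19 and 0.15), by DESeq2 (adjusted p 0.194), by voom (0.0528) and with no filter (0.0514), leaving 10 of 16 fits. SRGAP3 held between 0 and 3 reads in each library.

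The rows of the other tRNA enzymes held few reads. TRMT11, the guanosine methyltransferase with a THUMP domain, held 14 and 11 reads in KO1, 16 and 20 in KO2, and 22 and 14 in WT, and its groups overlapped. Its log2 fold change was -0.45 ± 0.49 in KO1 and -0.14 ± 0.46 in KO2, with 95% intervals of -1.44 to 0.54 and -1.08 to 0.80. These intervals lie below the THUMPD3 estimates of 0.92 and 1.11. ALKBH8, the wobble uridine enzyme, held 6 and 5 reads in KO1, 2 and 5 in KO2, and 1 and 2 in WT. N6AMT1, the eRF1 methyltransferase, held 1 and 1 in KO1, 2 and 1 in KO2, and 0 and 1 in WT. THUMPD1 held 5 and 3 in KO1, 7 and 9 in KO2, and 6 and 2 in WT. None of these 3 rows could be tested. AC004381.2, the pseudogene over THUMPD1, held 20 and 14 reads in KO1, 31 and 37 in KO2, and 18 and 8 in WT, and both KO2 libraries were above all others. It was 2.36-fold higher in KO2, at 1.24 ± 0.43 with an edgeR adjusted p of 0.0284, but not without the second WT library (0.73) or the second KO2 library (1.15), nor by DESeq2 (1.22, adjusted p 0.235), and it was at 1.98 without the first WT library.

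The METTL5 row, named for the enzyme that methylates an adenosine of small-subunit ribosomal RNA, was the most abundant member row. In mean count 0.564% of tested rows were above it. It held 10528 and 8864 reads in KO1, 12983 and 14432 in KO2, and 11700 and 11686 in WT. Whether these reads come from METTL5 or from SSB was not tested. Both KO1 libraries were lowest, and the KO2 and WT libraries overlapped on the scaled level. METTL5 was 1.14-fold lower in KO1, a log2 fold change of -0.19 ± 0.06 with an edgeR adjusted p of 0.00929. In KO2 the value was 0.09 ± 0.06 with an adjusted p of 0.24. The KO1 call was lost with upper-quartile scaling (-0.12) and without the first WT library (-0.14), and the value was -0.12 without the second KO1 library, whereas the difference between the lines, -0.29 ± 0.06 in KO1 against KO2 with an adjusted p of 0.000182, was called in all 15 fits. SSB, over the METTL5 3′ end, held 616 and 657 reads in KO1, 814 and 836 in KO2, and 706 and 780 in WT. It was called in neither line, at -0.14 ± 0.08 in KO1 and 0.02 ± 0.08 in KO2. The METTL5 row took 94.5% and 93.1% of the reads of the pair in KO1, 94.1% and 94.5% in KO2, and 94.3% and 93.7% in WT, so this share overlapped between all groups.

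The BUD23 row, named for the enzyme that methylates a guanosine of the same ribosomal RNA, fell in KO2. It held 1598 and 1500 reads in KO1, 1094 and 1175 in KO2, and 1623 and 1677 in WT. The KO2 libraries lay well below the other 4, which overlapped on the scaled level. BUD23 was 1.6-fold lower in KO2, a log2 fold change of -0.68 ± 0.07 with an edgeR adjusted p of 6.74e-10, against -0.01 ± 0.07 in KO1 with an adjusted p of 0.927. The difference between the lines was 0.66 ± 0.07 in KO1 against KO2, with an adjusted p of 1.99e-09, and 0.31 with an adjusted p of 0.00676 when measured against the rows within 5 Mb. Rows around BUD23 were lower in KO2 as well, and measured against them the KO2 value was -0.14 with an adjusted p of 0.236, no longer called.

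The DNAJC30 row, named for the chaperone gene that shares its start with BUD23, split the KO1 libraries. It held 18 and 121 reads in KO1, 10 and 10 in KO2, and 113 and 107 in WT. The second KO1 library was at the WT level and the first near the KO2 level, while both KO2 libraries were low. DNAJC30 was 11.9-fold lower in KO2, at -3.58 ± 0.48 with an edgeR adjusted p of 2.36e-07, and it was called there in all 16 fits. In KO1 it was -0.57 ± 0.35 with an adjusted p of 0.273, which became -2.57 (adjusted p 1.33e-08) without the second KO1 library and 0.26 (adjusted p 0.565) without the first. Alternatives gave adjusted p-values of 1.33e-08 to 0.89 for this KO1 value. The BUD23 row took 98.9% and 92.5% of the reads of this pair in KO1, 99.1% and 99.2% in KO2, and 93.5% and 94% in WT. STX1A, over the BUD23 3′ end, held 29 and 39 reads in KO1, 51 and 86 in KO2, and 42 and 56 in WT, and was called in neither line, at -0.44 ± 0.30 and 0.35 ± 0.27. Against the rows within 5 Mb, STX1A in KO2 was at 0.90 with an edgeR adjusted p of 0.0197, the only 1 of 16 fits that called it.

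Because neighbouring rows can move together, each member was set beside the other tested rows with a mean count of at least 50 within 5 Mb. Around TRMT112 and ESRRA there were 116 such rows, with a median log2 fold change of -0.09 in KO1 and 0.01 in KO2, and 9.48% of them were lower than TRMT112 in KO2. Around THUMPD3 there were 32 rows with medians of -0.09 and 0.01, and 96.9% of them in KO1 and 100% in KO2 were below THUMPD3. Around BUD23 there were 20 rows, with a median of -0.23 in KO1 and -0.54 in KO2. In KO2 their quartiles were -0.64 and -0.44, and 19 of the 20 were below 0, against 12 in KO1. BUD23 itself thus stood near its region in KO2, with 20% of the rows below it. DNAJC30 was below all 21 rows around it in KO2. Fewer than 15 rows surrounded METTL5 (14) and TRMT11 (7), and no local value was taken for them. With the local median as an offset in the edgeR fit, TRMT112 remained at -0.60 in KO2 (adjusted p 3.93e-06), THUMPD3 at 1.01 in KO1 and 1.10 in KO2 (adjusted p 6.86e-07 and 9.01e-08), and DNAJC30 at -3.06 in KO2 (adjusted p 8.09e-05).

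**Figure D5:**
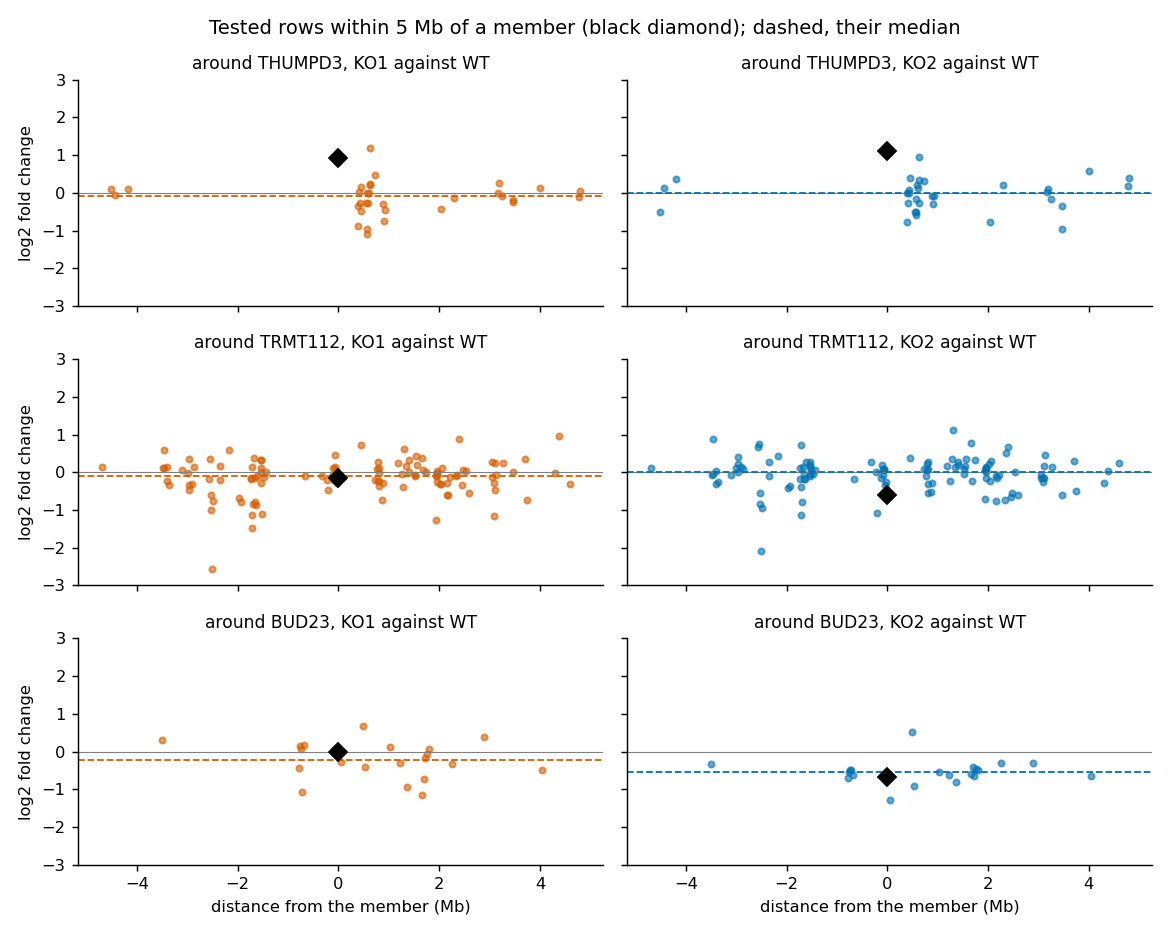
Log2 fold change against WT on the y axis for tested rows with a mean count of at least 50 within 5 Mb of THUMPD3, TRMT112 and BUD23, with distance from the member in Mb on the x axis, KO1 on the left and KO2 on the right. The black diamond is the member and the dashed line the median of the rows around it; the rows around BUD23 lie below 0 in KO2 with BUD23 among them, whereas THUMPD3 and TRMT112 stand away from their medians of 0.01 in KO2.

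The pathways in which the partners work were read from lists of gene names. By the edgeR test the background was 13.5% of tested rows called with the same sign in both lines. No such share is given for DESeq2 or for unadjusted p-values, so 13.5% is no measure for their counts below. Over all rows DESeq2 called 1897 in KO1 and 2465 in KO2, where edgeR called 3350 and 4118. Of 30 tRNA methyltransferases 18 rows were tested, and 3 rose in both lines while none fell by the edgeR test; by DESeq2 none of the 18 was called in both lines. LCMT2, an enzyme of wybutosine synthesis, held 75 and 75 reads in KO1, 85 and 92 in KO2, and 30 and 60 in WT, and all 4 knockout libraries were above WT, at log2 fold changes of 0.82 and 0.85. TYW3, of the same wybutosine pathway, was at 1.20 and 1.67, and the row CRYZ over it at 2.26 and 2.07. TRMT44, a uridine methyltransferase with 5 to 26 reads a library, was at 1.47 and 1.55. The TRMT44 calls in both lines were lost without the second WT library (1.01 and 1.10), the LCMT2 calls without the first WT library (0.45 and 0.47, but 1.34 and 1.37 without the second), and the KO1 call of TYW3 without the second KO1 library (0.79). TRMT44 in KO1 also lost its call without the first KO1 library (1.28), TRMT44 in KO2 without the first KO2 library (1.43), and LCMT2 in KO1 without the second KO1 library (0.78). The median over the 18 rows was 0.11 in KO1 and 0.15 in KO2.

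The wobble uridine list covers the pathway in which ALKBH8 takes the last methylation step, and also mitochondrial tRNA enzymes such as TRMU. It had 12 of 17 rows tested, of which 1 rose and 2 fell in both lines. DESeq2 called 1 in both lines, the mitochondrial enzyme TRMU. TRMU, which adds sulphur to mitochondrial tRNAs, held 101 and 89 reads in KO1, 104 and 119 in KO2, and 158 and 173 in WT. It was lower in all 4 knockout libraries than in WT, with log2 fold changes of -0.72 and -0.70 and edgeR adjusted p-values of 0.00223 and 0.00181. ELP2, a subunit of the Elongator complex, was at -0.84 and -0.92, and its KO1 call was lost without the second WT library (-0.78) or the first KO1 library (-0.69), and DESeq2 called it in neither line (-0.84 and -0.93). Measured against the rows within 5 Mb, ELP2 was at -0.05 and -0.17 and not called in either line. AC023043.1, over ELP2, was at -1.96 and -1.42, and at -1.17 and -0.66 against its surroundings. ELP4, another Elongator subunit, rose by 0.21 and 0.53, and its KO1 call, with an adjusted p of 0.0424, was lost when any library was left out (0.15 to 0.28) and held in 4 of 15 fits.

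Of 23 genes of ribosomal RNA modification, the pathway of METTL5 and BUD23, 15 rows were tested and none was called in both lines by edgeR or DESeq2, with 1 moving the same way at an unadjusted p under 0.05 in both. The median was -0.01 in KO1 and -0.18 in KO2. EMG1, a methyltransferase of the small ribosomal subunit, was at -0.08 in KO1 and fell by 0.62 in KO2 with an adjusted p of 6.9e-10. LPCAT3, over EMG1, was at -0.04 in KO1 and 0.18 in KO2, with an edgeR adjusted p of 0.0416 in KO2. NHP2, of the pseudouridylation particles, was at -0.23 in each line and not called. RMND5B, over NHP2, had a mean count of 21300 against 560 for the NHP2 row. It was at -0.01 in KO1 and -0.58 in KO2, with an edgeR adjusted p of 2.62e-11 in KO2. AL161668.3, over METTL17, was at -0.30 and -0.71, called in both lines. Against its surroundings it was at -0.28 in KO1 and -0.22 in KO2, still called in both (edgeR adjusted p 0.00552 and 0.0283). BAIAP3, over TSR3, was at -0.20 and -0.36, and its KO1 call was lost when either WT library was left out (-0.23 and -0.17), with upper-quartile scaling (-0.12), by DESeq2 (-0.19), with no filter (-0.19) and against the rows within 5 Mb (-0.16), leaving 10 of 16 fits. Of 13 genes of translation termination, where N6AMT1 acts, 10 rows were tested and none was called in both lines by edgeR, DESeq2 or an unadjusted edgeR p under 0.05. MTRF1, a mitochondrial release factor, was at 0.43 and 1.26, with a KO2 adjusted p of 0.042 and a call in 8 of 15 fits, which was lost without the first WT library (0.77) or either KO2 library (1.13 and 1.40), with a value of 2.07 without the second WT library. HBS1L, of ribosome rescue, was at 0.91 and 1.05 and not called. SNAP47, over JMJD4, which hydroxylates eRF1, was at 0.66 and 0.46, called in both lines, and at 0.09 and 0.05 and uncalled against its surroundings.

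Of 21 coregulators and targets of ESRRA 13 rows were tested, and 2 fell in both lines while none rose. GABPA, an ETS factor for mitochondrial genes, held 4543 and 4871 reads in KO1, 5367 and 5697 in KO2, and 5958 and 6110 in WT, at log2 fold changes of -0.28 and -0.26. PERM1, which is induced by ERR receptors in muscle, held 4 and 2 reads in KO1, 13 and 12 in KO2, and 43 and 70 in WT, at -4.10 and -2.29 with edgeR adjusted p-values of 5.65e-08 and 1.64e-05. Both rows were below WT in all 4 knockout libraries, and DESeq2 also called 2 rows of the list in both lines. ATP5PF, over GABPA, had a mean count of 544 against 5420 for the GABPA row. It was at -0.13 and -0.08 and called in neither line, and which gene the GABPA row reads was not tested. PLEKHN1, over PERM1, was at -1.98 and -1.09, and both calls were lost without the second WT library (-1.55 and -0.66), the KO2 call also without the first KO2 library (-0.70), by DESeq2 (-1.11) and against the rows within 5 Mb (-0.71, adjusted p 0.228). MIEN1, over ERBB2, was at -0.51 and -0.77, and its KO1 call was lost when any WT or KO1 library was left out (-0.53 to -0.49), with upper-quartile scaling (-0.43), by DESeq2 (-0.50) and against the rows within 5 Mb (-0.39), leaving 9 of 16 fits. The median of the list was -0.13 in KO1 and -0.26 in KO2, beside 0.01 and 0.02 over all rows.

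Rows whose pattern over the 6 libraries was nearest to a member were found by the Euclidean distance of log2 CPM relative to the WT mean, among 6425 rows with a mean count of at least 50. Nearest to TRMT112 were AL021707.2 (distance 0.0492), CCDC175 (0.0786) and AL049840.2 (0.103). JUN (0.139), TRAPPC2 (0.179) and ZNF562 (0.188) lay nearest to THUMPD3, with log2 fold changes of 0.83 and 1.07 for JUN in KO1 and KO2. Nearest to THUMPD3-AS1 were FAM166A (0.022), AC037459.2 (0.0379) and AC005841.1 (0.0452). These distances describe the libraries at hand.

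The authors' deposited table compares the 4 knockout libraries with the 2 WT libraries and lists 6 of the 10 members among 11785 rows, of which 1164 have a q-value under 0.05. In the authors' deposited table THUMPD3 has a log2 fold change of 1.05 with a q-value of 0.00542, the only member under that threshold. The same authors' deposited table gives TRMT112 as -0.35 (q 0.196), BUD23 as -0.31 (q 0.363), THUMPD3-AS1 as 0.11 (q 0.465), METTL5 as -0.01 (q 0.969) and ESRRA as 0.00 (q 0.988). The FPKM values of the authors' deposited table for THUMPD3 are 24.5 and 24.1 in KO1, 30.4 and 25.4 in KO2, and 11.6 and 13.5 in WT. The gene sizes in the authors' deposited table are 264 bases for METTL5 and 378 for THUMPD3-AS1, against 2865 and 6275 exonic bases in GENCODE v29. In the FPKM of the authors' deposited table THUMPD3-AS1 stands above TRMT112 and ESRRA in WT, whereas per kb of exon it stands below both; METTL5 is first on both scales.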

How the data were processed

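HEK293T total RNA was sequenced in 6 libraries, 2 each of KO1, KO2 and WT, grouped by genotype label. RNA was taken up in TRNzol and a NEBNext Ultra II Directional kit (RF or first-strand type) was used, per the labels' protocols. Trim Galore, limma, STAR 2.7.1a and HTSeq 0.6.1p1 are named with hg38 and GRCh38.p6, per the submitters' processing notes. Neither the annotation nor the counting's strand setting was stated in the sources used here. The authors deposited raw read counts for each symbol, as whole numbers. The authors also deposited FPKM values, log2 fold changes, p-values and q-values of knockout against WT, used here only as quoted. Counts were tested in R 4.3.3 with edgeR 4.0.16 (TMM, filterByExpr, quasi-likelihood F test, 3 groups in 1 fit, 3 residual and 31.9 prior degrees of freedom, biological coefficient of variation 7.57%), with p-values adjusted over 14184 rows. Intervals on shares cover counting error only.

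The alternatives were scaling by RLE or by the upper quartile, DESeq2 1.42.0, voom in limma 3.58.1, other filters on low counts, a block for the replicate number, the compared libraries only, a local offset and leaving out each library. Rows were placed by symbol on GENCODE v29, 56195 of them directly, with 219 ambiguous and 2673 unmatched. The fit was tested on simulated counts with known changes: no change was called with the wrong sign, and changes of low-count rows were missed more often than those of rows with a mean count of at least 100. A first version, with the changes on rows with a mean count of at least 20, fell short of the share of changes it was meant to recover, and that mark was afterwards applied to rows with a mean count of at least 100 only. The members, lists and alternatives were chosen with earlier results of these data known. Genes named are all members, THUMPD2, rows sharing at least 100 exonic bases with a member on the other strand, up to 4 rows per list called in both lines or else the 2 of smallest p, the 3 rows nearest in pattern to TRMT112, THUMPD3 and THUMPD3-AS1, and tested rows beside each member. Rows over list genes that were called in both lines were added to these. Also added were ATP5PF, RMND5B and LPCAT3, which lie over named list genes, and some HEK293 markers with the rows over them.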

Additional observations from a re-analysis of the deposited data

Results flagged for a closer look

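The lines differed from each other in 6 rows among the members and the rows over them. The test was edgeR of KO1 against KO2 with adjustment over all rows. Of the 7 tested members 3 were called, beside 20.4% of all tested rows, and the other 3 rows lie over members. BUD23 was 0.66 higher (log2) in KO1 than in KO2 (0.31 against the rows within 5 Mb), TRMT112 0.43 higher and METTL5 at -0.29. Of the rows over members, DNAJC30 was 3.01 higher in KO1, a difference that fell to 1.01 (adjusted p 0.194) without the second KO1 library. STX1A was at -0.79 with an adjusted p of 0.048, called in 8 of 16 fits. The call was lost without the first KO1 library (-0.55) or the second KO2 library (-0.41), with the compared libraries only, with no filter, with RLE or upper-quartile scaling, and by DESeq2 and voom (-0.78 to -0.74 in these 6). AC026191.1 was at 0.22 with an adjusted p of 0.0429, called in 7 of 16 fits. It was not called by DESeq2 or voom, with the replicate block, with the compared libraries only, or in any fit without a WT library (0.22 to 0.23), a KO2 library (0.16 to 0.28) or the second KO1 library (0.14).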

How the results depend on the processing

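THUMPD3 in both lines and TRMT112 in KO2 kept their direction and call in all 16 fits, and BUD23 in KO2 in 15. In KO1 2 members were called in each fit with 2 libraries a group, except 3 with a mean count of at least 50. Those fits called 1897 to 3490 of all rows in KO1. Without the second KO1 library TRMT112 was at -0.27 and ESRRA at -0.24, and without the first WT library METTL5 was at -0.14. Over all rows DESeq2 called 1897 in KO1, 2465 in KO2, 2413 for both lines averaged and 1778 in KO1 against KO2, and the local offset called 1906, 2255, 2232 and 1587, where the fit reported called 3350, 4118, 4009 and 2889; the cause was not tested. The offset had no value for METTL5, SSB and TRMT11, with too few rows around them. Taken over 6425 rows, same-numbered libraries did not deviate together (correlations of -0.03, -0.02 and -0.1). Whether they share a batch that touched only some rows was not tested. With the replicate number as a block 2, 3, 3 and 3 members and 3147, 3944, 3789 and 2729 rows were called, and the calls of ELP4 in KO1 (0.21), MTRF1 in KO2 (1.26) and AC026191.1 in KO1 against KO2 (0.22) were lost.

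Of 1520 alternative values of named rows, 36 changed sign, 35 of them called in neither fit. The exception was BUD23 averaged over both lines, 0.02 with the offset. BUD23 in KO1 was 0.06 by upper quartile, 0.03 with a mean count of at least 50 and 0.17 with the offset. ESRRA was 0.01 in KO1, 0.02 in KO2 and 0.01 averaged by upper quartile, 0.05 in KO2 and 0.01 averaged with a mean count of at least 50, and 0.01 in KO1 against KO2 with the offset. STX1A averaged was 0.01 by upper quartile and 0.31 with the offset, AC026191.1 in KO2 was -0.01 by DESeq2 and with no filter, NHP2 in KO2 was 0.11 with the offset and ERI2 in KO1 0.01 by upper quartile. With 1 library left out, ESRRA ran from -0.24 to 0.08 in KO1, -0.05 to 0.03 in KO2, -0.12 to 0.03 averaged and -0.23 to 0.09 in KO1 against KO2. In KO1 BUD23 then ran from -0.04 to 0.01, AC004381.2 from -0.06 to 1.20, DNAJC30 from -2.57 to 0.26 and MTRF1 from -0.07 to 1.23. In KO2 TRMT11 ran from -0.47 to 0.27, STX1A from -0.03 to 0.65, AC026191.1 from -0.04 to 0.07 and SSB from -0.01 to 0.04, and averaged TRMT11 ran from -0.63 to 0.12 and STX1A from -0.24 to 0.12. The cause was not tested. DNAJC30 averaged was not called by DESeq2 (adjusted p 0.0946), and METTL5 in KO2 was called in 4 fits (0.09 to 0.15).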

Other observations

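Beyond the overlapping pairs, most of the nearest tested rows beside the members were not called. This does not set them apart, since 23.6% of all tested rows were called in KO1 and 29% in KO2. GPR137, 16072 bases before ESRRA, was lower in both lines, at log2 fold changes of -0.29 and -0.25 with edgeR adjusted p-values of 0.000693 and 0.00271, and its KO2 call was lost without the first KO2 library (-0.21). PRDX5, which starts 4 bases after TRMT112 and encodes a peroxiredoxin, had a mean count of 14.7 and was at 0.00 and -0.59, not called. LHFPL4, 99782 bases after THUMPD3-AS1, was higher in both lines, at 1.51 and 1.78 with adjusted p-values of 0.00523 and 0.000508, and its KO1 call was lost without the second KO1 library (1.15) and by DESeq2 (1.52, adjusted p 0.073). ABHD11-AS1, 29877 bases after BUD23, was at -0.28 in KO1 and fell by 1.28 in KO2 with an adjusted p of 2.47e-06. Measured against the rows within 5 Mb it was at -0.74 in KO2 with an adjusted p of 0.00709. ERI2, an exonuclease gene 38109 bases after THUMPD1, was at -0.07 in KO1 and rose by 0.75 in KO2 with an edgeR adjusted p of 4.27e-06. PPP1R14BP5, after TRMT11, was at 1.31 and 2.26, and its KO2 call, with an adjusted p of 0.00562, was lost without the first WT library (1.73) or the second KO2 library (2.05) and by DESeq2 (2.29).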
